A study of Mus musculus with 4 samples.

Results

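Prostaglandin receptors and synthases were described as 10 genes: 5 receptors (*Ptgir*, *Ptger1*, *Ptger2*, *Ptger3* and *Ptger4*), both cyclooxygenases (*Ptgs1* and *Ptgs2*) and 3 terminal synthases (*Ptges*, *Ptgis* and *Ptgds*). The members were found as every probe, controls aside, whose transcript accession belongs to 1 of these symbols in mouse RefSeq. This gave 12 of the 27427 named probes and 10 of the 20832 named genes. The family was chosen by its signals on these same arrays, since it was put forward with the difference between the populations already known, *Ptgir* being among the genes with the largest difference between the populations. The differences of the 10 members between the populations are therefore given as a description: no p is given for them, and counts past a threshold are printed beside those of all genes and support nothing.

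The arrays compared Met-low and Met-high cells, populations that were sorted by flow cytometry from B16-F10, a malignant melanoma line of the mouse, according to the amount of the receptor tyrosine kinase Met on the surface. Both populations were grown for 3 days after the sort in the same serum-containing medium and received no other treatment. Each was represented by 2 one-colour Agilent arrays hybridised with Cy3-labelled cRNA. The study's methods describe the RNA samples of a population as prepared independently of each other.

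Prostaglandins are made from arachidonic acid, which cyclooxygenases convert into the unstable prostaglandin H2. Terminal synthases then turn this intermediate into prostaglandin E2 (*Ptges*), prostacyclin (*Ptgis*) or prostaglandin D2 (*Ptgds*), and these leave the cell and bind G protein-coupled receptors on the same or on neighbouring cells. The prostacyclin receptor IP (*Ptgir*) and the prostaglandin E2 receptors EP2 (*Ptger2*) and EP4 (*Ptger4*) raise cAMP through Gs, EP1 (*Ptger1*) raises calcium, and EP3 (*Ptger3*) mainly lowers cAMP through Gi. In melanocytes cAMP is a main signal for pigment synthesis.

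For the 4 members that gave signal on the arrays, the DNA just upstream of an annotated transcription start is shown, to let these promoters be compared. RefSeq promoters (GRCm38.p6) matched 8 of the 10 members, and *Ptger1* and *Ptgis* had no entry. Each line gives the 250 bases before that start, on the strand of the gene from 5′ to 3′. The *Ptgir* window ends where the annotated gene begins. The other windows lie within the annotated span of their gene, so their starts are not its outermost ones. These spans are chr2:36216742-36258593 for *Ptgs1*, chr2:30889471-30931020 for *Ptges* and chr2:25466709-25470110 for *Ptgds*. Capitals mark every match to 1 of 7 motifs searched on both strands: the full cAMP response element TGACGTCA, its short form TGACG, the E-boxes CACGTG and CATGTG, the AP-1 site TGANTCA, the TATA box TATAAA and the GC box GGGCGG.
*Ptgir*, chr7:16906240-16906489, plus strand: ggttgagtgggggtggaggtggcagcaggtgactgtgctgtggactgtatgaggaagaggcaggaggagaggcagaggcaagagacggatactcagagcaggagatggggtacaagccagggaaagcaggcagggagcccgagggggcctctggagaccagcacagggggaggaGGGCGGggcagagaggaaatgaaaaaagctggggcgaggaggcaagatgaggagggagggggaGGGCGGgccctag
*Ptgs1*, chr2:36230176-36230425, plus strand: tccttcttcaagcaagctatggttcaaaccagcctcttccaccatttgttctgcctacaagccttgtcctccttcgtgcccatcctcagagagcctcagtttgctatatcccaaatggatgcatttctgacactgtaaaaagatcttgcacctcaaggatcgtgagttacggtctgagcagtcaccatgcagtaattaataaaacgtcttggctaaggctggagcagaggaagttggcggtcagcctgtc
*Ptges*, chr2:30903298-30903547, minus strand: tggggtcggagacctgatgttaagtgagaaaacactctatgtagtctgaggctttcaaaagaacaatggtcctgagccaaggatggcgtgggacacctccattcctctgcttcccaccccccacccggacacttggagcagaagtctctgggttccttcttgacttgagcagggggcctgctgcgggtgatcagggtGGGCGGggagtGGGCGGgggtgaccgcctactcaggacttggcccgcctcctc
*Ptgds*, chr2:25469750-25469999, minus strand: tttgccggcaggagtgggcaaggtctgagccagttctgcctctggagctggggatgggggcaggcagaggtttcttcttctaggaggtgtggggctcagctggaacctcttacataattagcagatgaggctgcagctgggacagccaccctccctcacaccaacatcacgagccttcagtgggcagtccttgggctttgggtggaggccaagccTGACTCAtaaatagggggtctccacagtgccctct

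The promoter of *Ptgir* held 2 GC boxes, which began at positions -76 and -13 from the start. That of *Ptges* held 2 as well, at -53 and -42. GC boxes were present in 32.7% of the 32817 promoters of the same length. The *Ptgds* window held 1 AP-1 site, at -35, a motif found in 6.75% of promoters. None of the 7 motifs was found in the *Ptgs1* window, which says only that these letters are not within it. The full cAMP response element, present in 1.55% of all promoters, and its short form, present in 17.7%, were in none of the 4 windows. The G and C content was 63.6% for *Ptgir*, 59.6% for *Ptges*, 58.4% for *Ptgds* and 48.0% for *Ptgs1*, beside a median of 52.4% over all promoters.

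Signal was measured above background for 4 of the 10 genes, *Ptgir*, *Ptgs1*, *Ptges* and *Ptgds*, on all 4 arrays. The other 6 genes, with 7 probes, were well above background on no array, and their signals lay between 6.22 and 22.2 arbitrary units. The signals are background-corrected Cy3 intensities as the scanner software gave them. Signals of different probes are not set against each other here, since probes differ in how well they bind. In RNA from bulk cultures, fewer cells that express a gene and less RNA per cell cannot be told apart.

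**Figure D1:**
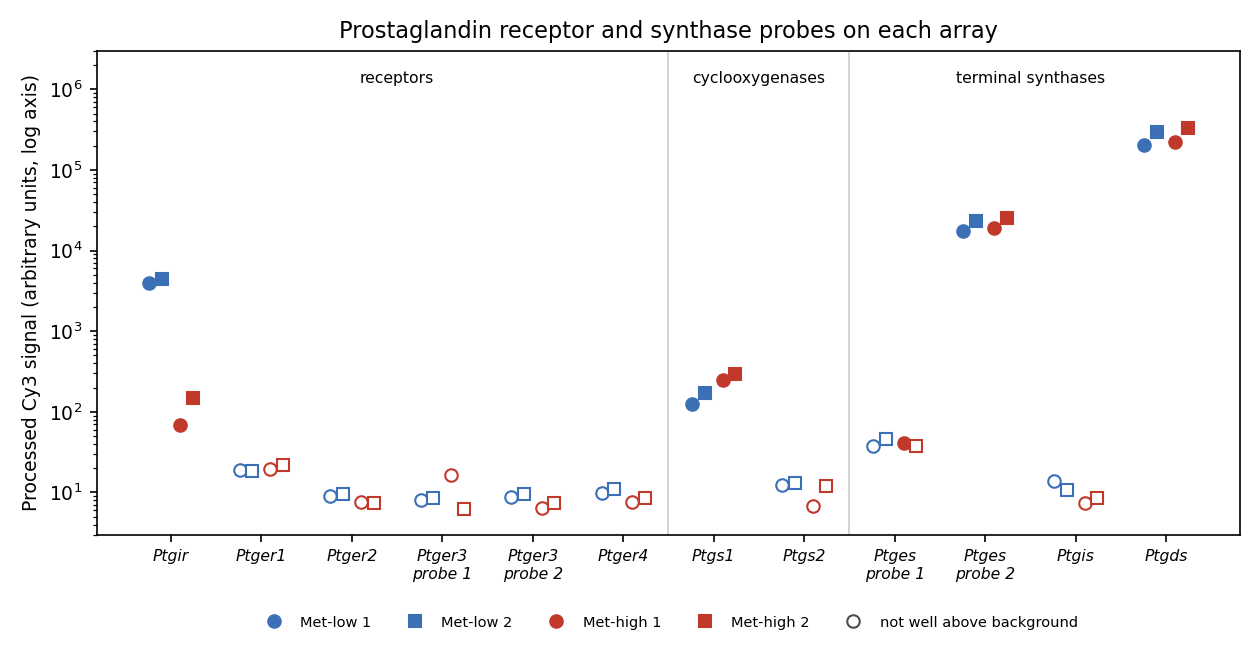
Processed Cy3 signal in arbitrary units (vertical log axis) of the 12 probes of the 10 genes, 1 point per array, with Met-low arrays in blue and Met-high arrays in red, circles for replicate 1 and squares for replicate 2. Open symbols were not well above background. For *Ptgir* both Met-low arrays, at 3981 and 4384, lay far above both Met-high arrays, at 68.1 and 147, whereas the pairs for *Ptges* and *Ptgds* lay close together.

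*Ptgir* (NM_008967), which encodes the prostacyclin receptor, gave signals of 3981 and 4384 in Met-low cells and of 68.1 and 147 in Met-high cells. Both Met-low arrays were high, both Met-high arrays were low, and the populations did not overlap. Scaled to the array's own 75th percentile, which corrects for overall brightness, the log2 signals were 2.08 and 1.72 in Met-low and -3.66 and -2.92 in Met-high cells. The means on this log2 scale were 1.90 ± 0.25 (SD, n = 2) and -3.29 ± 0.52 (SD, n = 2). The difference, Met-high minus Met-low, was -5.19 with a standard error of 0.29, or 36.4-fold higher in Met-low cells. After scaling, the lower Met-low array was still 24.9-fold above the higher Met-high array. The receptor transcript was well above background on all 4 arrays, so the fold is a measured value and not a bound. The 2 Met-high arrays differed 2.15-fold in unscaled signal, a spread that is wider than between the Met-low arrays.

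Among the 11948 genes that passed the filter, the log2 difference of *Ptgir* was the third lowest. To pass, a gene had to be well above background in every array of one population or the other. Leaving out any single array gave log2 differences between -5.55 and -4.82. Under normexp background correction, another way to subtract background, the difference was -4.26. This setting also added an offset of 50 to every signal, which weighs most on low signals such as those of *Ptgir* in Met-high cells.

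The EP receptors gave no such measurement. *Ptger1* (NM_013641), the calcium-coupled EP1, gave signals of 19.2 and 18.7 in Met-low and 19.7 and 22.2 in Met-high cells. *Ptger2* (NM_008964), which encodes EP2, gave 8.92 and 9.59 in Met-low and 7.67 and 7.30 in Met-high cells. *Ptger4* (NM_008965), which encodes EP4, gave 9.95 and 10.9 in Met-low and 7.62 and 8.66 in Met-high cells. None of these 3 probes was well above background on any array, so no fold is given.

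*Ptger3* (NM_011196), the Gi-coupled EP3, had 2 probes and neither was well above background. The first gave 8.00 and 8.56 in Met-low and 16.5 and 6.22 in Met-high cells, and its Met-high arrays lay on both sides of the Met-low arrays. The second gave 8.90 and 9.46 in Met-low and 6.50 and 7.45 in Met-high cells. At this signal over background, *Ptgir* was thus the 1 receptor of the 5 with a measured level, and EP receptor transcripts were not detectable with these probes.

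*Ptgs1* (NM_008969), which encodes the cyclooxygenase COX-1, lay on the other side. Its signals were 125 and 170 in Met-low and 247 and 296 in Met-high cells, and all 4 were well above background. Both Met-high arrays were above both Met-low arrays. The scaled log2 signals were -2.91 and -2.97 in Met-low and -1.80 and -1.91 in Met-high cells. The means were -2.94 ± 0.04 (SD, n = 2) and -1.85 ± 0.08 (SD, n = 2), a difference of 1.09 with a standard error of 0.16, or 2.13-fold higher in Met-high cells. After scaling, the lower Met-high array was 2.00-fold above the higher Met-low array. Its log2 difference ranked 230 from the top among the genes that passed the filter.

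*Ptgs2* (NM_011198), the inducible cyclooxygenase COX-2, was spotted 10 times on each array. The mean of its unflagged spots was 12.3 and 13.0 in Met-low and 6.85 and 12.2 in Met-high cells. The median of its unflagged spots was 8.75 and 9.33 in Met-low and 6.40 and 7.32 in Met-high cells. None of the unflagged spots was well above background. The scanner software marked 1 spot as an outlier on a Met-low array, with a signal of 256, and 1 on a Met-high array, with a signal of 33.5. These 2 spots alone were called well above background, and outlier spots were left out. The highest unflagged spots reached 34.2 and 27.6 in Met-low and 8.82 and 34.4 in Met-high cells, so on 3 of the 4 arrays single spots lay well above the median of the same probe.

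**Figure D2:**
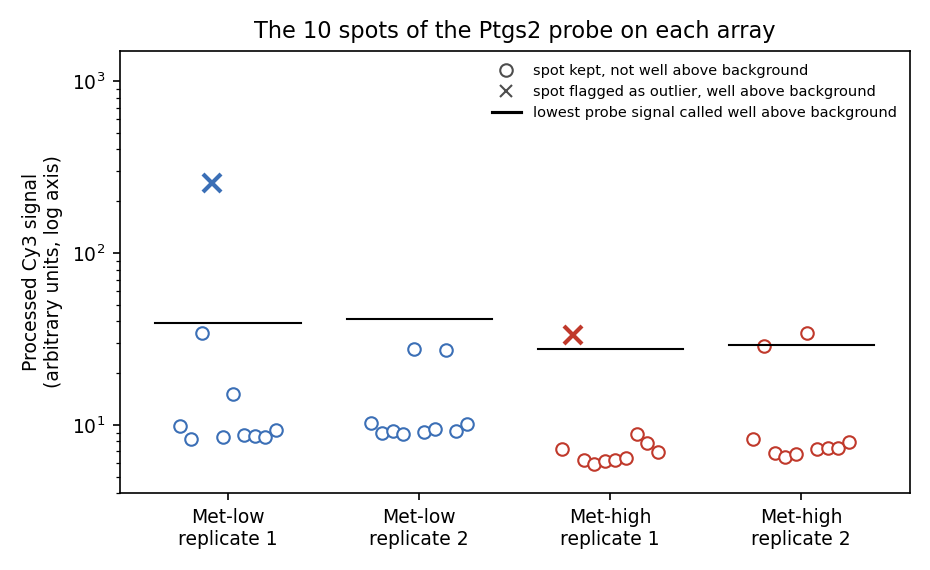
Processed Cy3 signal (vertical log axis, arbitrary units) of the 10 spots of the *Ptgs2* probe on each of the 4 arrays. Circles are spots that were kept, crosses are spots marked as outliers, and the horizontal line is the lowest signal of any probe called well above background on that array, between 27.6 and 41.4. Most spots sat near the array medians of 6.40 to 9.33, with 1 outlier at 256 on a Met-low array.

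The terminal synthases of prostaglandin E2 and D2 were measured on every array, with smaller differences. *Ptges* (NM_022415), the inducible microsomal prostaglandin E synthase, had 2 probes. The brighter gave 17443 and 23287 in Met-low and 19157 and 25028 in Met-high cells. Unscaled, the populations overlapped, since the second Met-low array was above the first Met-high array. After scaling, the log2 signals were 4.21 and 4.13 in Met-low and 4.48 and 4.49 in Met-high cells and no longer overlapped. The means were 4.17 ± 0.06 (SD, n = 2) and 4.49 ± 0.01 (SD, n = 2), and the difference was 0.32 with a standard error of 0.15, or 1.25-fold. The dimmer probe gave 37.5 and 45.8 in Met-low and 41.1 and 37.2 in Met-high cells, and it was well above background on 1 of the 4 arrays.

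*Ptgds* (NM_008963), the lipocalin-type prostaglandin D synthase, gave signals of 200976 and 291979 in Met-low and 221380 and 326053 in Met-high cells. Unscaled, these overlapped as well. The scaled log2 signals were 7.74 and 7.78 in Met-low and 8.01 and 8.20 in Met-high cells. The means were 7.76 ± 0.03 (SD, n = 2) and 8.10 ± 0.13 (SD, n = 2), a difference of 0.35 with a standard error of 0.16, or 1.27-fold. No spot of any probe was saturated. *Ptgis* (NM_008968), the prostacyclin synthase that makes the ligand of the *Ptgir* product, gave 13.9 and 10.7 in Met-low and 7.43 and 8.55 in Met-high cells, well above background on no array.

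The differences of *Ptgs1*, *Ptges* and *Ptgds* depended on the scaling. The median log2 difference of all genes was 0.10. With the 75th percentile taken over probes detected on all arrays, the median of all genes moved to -0.05. The log2 differences were then 0.94 for *Ptgs1*, 0.17 for *Ptges* and 0.20 for *Ptgds*. Quantile normalization gave 1.21 and normexp 0.88 for *Ptgs1*. Its difference was thus under 2-fold with normexp and with the percentile over detected probes. The differences of *Ptgs1*, *Ptges* and *Ptgds* stayed above 0 under every scaling tried. As a measure of precision, the 95% interval of the fit ran from -5.93 to -4.45 for *Ptgir* and from 0.69 to 1.49 for *Ptgs1*. It ran from -0.07 to 0.71 for *Ptges* and from -0.06 to 0.76 for *Ptgds*. These intervals take no account of the choice of the family by this same contrast, so they serve as description only.

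**Figure D3:**
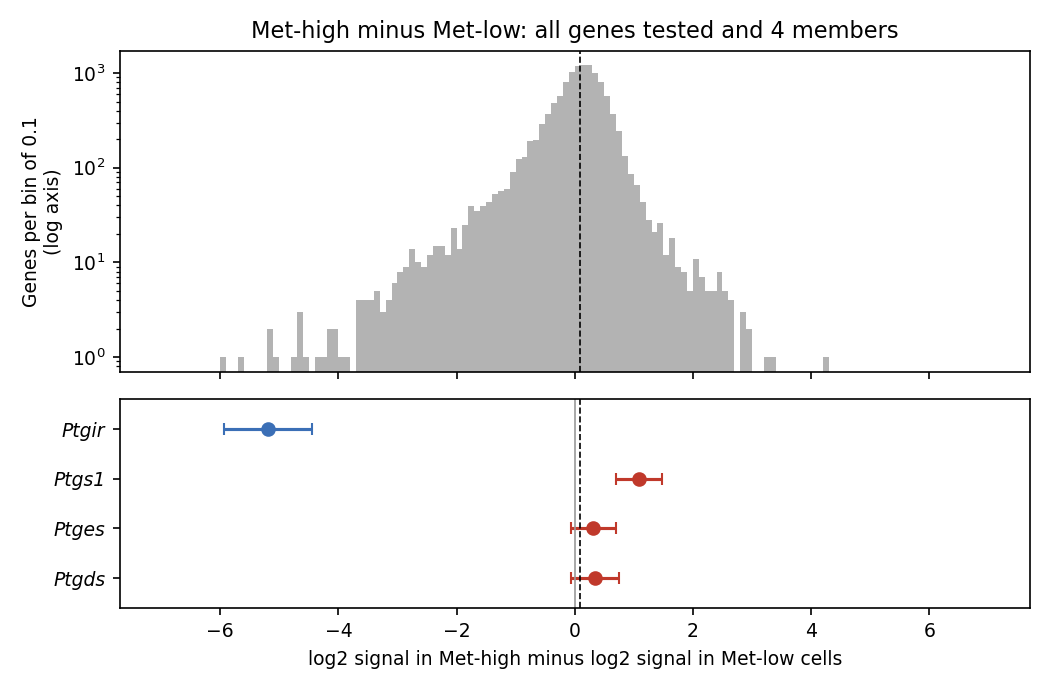
Upper panel, number of genes (log axis) by log2 signal in Met-high minus log2 signal in Met-low cells, for the 11948 genes tested. Lower panel, the same difference for the 4 genes measured, with bars for the 95% interval of the limma fit. The dashed line is the median of all genes, 0.10, and *Ptgir*, at -5.19, lies in the left tail, while *Ptges* and *Ptgds* lie near the centre.

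Counted over the family, limma's moderated test on all genes, with Benjamini-Hochberg adjustment and a threshold of 0.05, called 2 of the 10 members, or of the 4 that were measured, *Ptgir* as higher in Met-low and *Ptgs1* as higher in Met-high cells. Of all genes tested 5.75% were called, 3.81% as higher in Met-low and 1.94% as higher in Met-high cells. With the percentile over detected probes, 81.0% of the calls were on the Met-low side, beside 66.2% with all probes. The scaled values of the 2 populations did not overlap for 4 of the 4 measured members, and for 58.4% of all genes tested (22.6% with Met-low and 35.7% with Met-high above). A difference of over 2-fold was seen for 2 of the 4, and for 7.7% of all genes (5.28% higher in Met-low, 2.42% in Met-high). Since this contrast served to propose the family, nothing is read from these counts. The median log2 difference of the 4 was 0.33. The call of *Ptgs1* was lost when any 1 of the 4 arrays was left out, with log2 differences of 1.03 to 1.15.

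All arrays lay on 1 slide and were read in 1 scan, where Met-low cells took positions 1 and 2 and Met-high cells positions 3 and 4, so the effect of place on the slide and that of the population cannot be told apart. The share of spots well above background was 50.01% to 53.63%. *Met* (NM_008591), the gene of the sorting marker, had scaled log2 signals of -0.26 and -0.89 in Met-low and 1.03 and -0.43 in Met-high cells. The mean was 1.83-fold higher in Met-high cells, as the labels have it, with a log2 difference of 0.87 and a standard error of 0.51 (limma, adjusted p = 0.332), and the second Met-high array lay between the Met-low arrays. All 7 melanocyte markers, such as *Tyr*, *Dct* and *Sox10*, were well above background on all arrays.

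Markers of other cells were read beside the *Ptgir* difference. Mast cells and platelets are known for prostanoid synthesis or response, and 0 of their 6 markers, *Pf4*, *Itga2b* and *Cpa3* among them, were well above background on any array. Of 5 fibroblast markers, *Dcn*, *Lum* and *Pdgfra* were well above background on no array and *Col1a1* on 1. *Col1a2* was so on all 4 and was lower in Met-high cells, by a log2 difference of -1.10 with a standard error of 0.17 (limma, adjusted p = 0.031), and the summed signal of the list was 584 and 902 in Met-low and 257 and 347 in Met-high cells. Of 5 macrophage and leukocyte markers on the array, *Ptprc* and *Cd14* were well above background on no array, *Adgre1* was so on 1, *Csf1r* and *Itgam* were so on all 4 with log2 differences of 0.35 and -0.65 (limma, adjusted p = 0.30 and 0.19), and the summed signal was 2075 and 4559 in Met-low and 1420 and 2159 in Met-high cells. Of 5 endothelial markers, *Cdh5* and *Tek* were well above background on no array, *Pecam1* on 3 and *Kdr* and *Vwf* on all 4. The log2 differences of *Kdr* and *Vwf* were 0.36 and 0.42 (limma, adjusted p = 0.301 and 0.229), and the summed signal was 6044 and 7460 in Met-low and 7365 and 7652 in Met-high cells. *Col1a2* and the unscaled fibroblast sum were lower on both Met-high arrays. The leukocyte and endothelial sums of the populations overlapped as unscaled signals only. The arrays differed in brightness, with 75th percentiles of 942 and 1331 in Met-low and 858 and 1111 in Met-high cells. Relative to these percentiles, the leukocyte sum was higher on both Met-low arrays and the endothelial sum on both Met-high arrays. The part of these genes in the *Ptgir* difference was not tested.

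The rest of the pathway was read from 7 lists with 92 genes in all, of which 66 passed the filter. Of these, 4 changed at an adjusted p under 0.05 in the limma fit over all genes, 3 towards Met-low and 1 towards Met-high cells, or 6.06% beside 5.75% of all genes tested. The median log2 difference of the 66 was 0.08, near the 0.10 of all genes. The share of called pathway genes was close to the background, so it gives no result for the pathway as a whole. Without adjustment, 26.2% of all genes tested had a p under 0.05 in limma, 11.9% higher in Met-low and 14.3% higher in Met-high cells, and the unadjusted counts of the lists stand beside that share.

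The remaining prostanoid receptors, *Ptgdr*, *Ptgdr2*, *Ptgfr* and *Tbxa2r*, and the regulator *Ptgfrn*, which make up a list of 5, all fell below the filter. Of 7 other synthases 5 passed it, and limma called none of them, with 2 at an unadjusted p under 0.05. Their median log2 difference was 0.45. The largest differences in this list were those of the prostaglandin E synthases *Ptges2*, at 0.86 with a standard error of 0.29 (limma, adjusted p = 0.149), and *Ptges3*, a cochaperone also called p23, at 0.58 with a standard error of 0.16 (limma, adjusted p = 0.103). The thromboxane synthase gene *Tbxas1* was below the filter.

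Genes that supply arachidonate or clear prostaglandins showed no call. Of 17 supply genes 14 passed the filter, their median log2 difference was 0.0032, and limma called none, with 4 at an unadjusted p under 0.05. Within this list *Mgll*, which releases arachidonate from 2-arachidonoylglycerol by way of monoacylglycerol hydrolysis, had a log2 difference of 0.74 (limma, adjusted p = 0.127), and *Faah*, which hydrolyses anandamide, had -0.82 (limma, adjusted p = 0.168). The cytosolic phospholipase gene *Pla2g4a* was below the filter. Of 6 genes for clearance and transport 3 passed, with a median of -0.11, none called by limma and 0 at an unadjusted p under 0.05. The catabolic dehydrogenase *Hpgd* and the transporter *Slco2a1* were below the filter.

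The leukotriene and lipoxygenase branch, which uses the same precursor, kept 6 of 13 genes. Their median log2 difference was 0.50 and limma called none, with 4 at an unadjusted p under 0.05, all higher in Met-high cells. Among them were *Lta4h*, which makes leukotriene B4, at 0.61 (limma, adjusted p = 0.152), and *Ltc4s*, the leukotriene C4 synthase, at 0.47 (limma, adjusted p = 0.139).

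Downstream of the receptors, the Gs, adenylyl cyclase and cAMP arm, which IP, EP2 and EP4 use, kept 30 of 34 genes. Their median log2 difference was 0.10. Limma called 2 of the 30, or 6.67% beside 5.75% of all genes tested. At an unadjusted p under 0.05 in limma there were 6, 4 higher in Met-low and 2 higher in Met-high cells, beside 26.2% of all genes. *Arrb2* (NM_145429), the gene of β-arrestin 2, which uncouples active receptors from G proteins, was higher in Met-high cells. Its scaled log2 signals were -2.66 and -2.38 in Met-low and -1.09 and -1.11 in Met-high cells, a difference of 1.41 with a standard error of 0.17 (limma, adjusted p = 0.018). *Rapgef4* (NM_019688), the gene of the cAMP sensor Epac2, passed the threshold on the Met-low side, with -3.65 and -3.58 against -4.51 and -4.51 and a difference of -0.90 with a standard error of 0.15 (limma, adjusted p = 0.038). It was well above background on 1 of the 2 Met-high arrays, so it passed the filter through the Met-low arrays alone, where it was higher, and its Met-high level is uncertain. It was not tested when all 4 arrays had to be well above background, and it was called in 6 of 18 alternatives. *Gnas*, which encodes the Gs α subunit itself, had a difference of -0.46 (limma, adjusted p = 0.147).

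The signalling arm through Gq and Gi, which EP1 and EP3 use, kept 8 of 10 genes with a median of -0.05. Of these, 6 had an unadjusted p under 0.05 in limma, 3 higher in each population, beside 26.2% of all genes tested. The list was not tested as a set. After adjustment 2 of the 8 were called, or 25% beside 5.75% of all genes tested, both lower in Met-high cells. *Gnaq* (NM_008139), the gene of the Gq α subunit, had scaled log2 signals of 0.87 and 0.56 in Met-low and -0.38 and -0.85 in Met-high cells, a difference of -1.32 with a standard error of 0.23 (limma, adjusted p = 0.039). *Plcb4* (NM_013829), a phospholipase C that Gq activates, had -3.02 and -2.79 in Met-low and -4.12 and -3.96 in Met-high cells, a difference of -1.13 with a standard error of 0.17 (limma, adjusted p = 0.030). The populations did not overlap for either gene, and a second probe of *Plcb4* gave -1.10. *Gna11*, the close relative of *Gnaq*, had a difference of 0.71 in the opposite direction (limma, adjusted p = 0.098). *Plcb4* was called in 9 of 18 alternatives and not under normexp, quantile normalization or a mean-variance trend. With single arrays left out, *Rapgef4* and *Plcb4* were called in 0 of 4 fits, *Gnaq* in 2 of 4, losing its call without the first Met-low or the second Met-high array, and *Arrb2* in 3 of 4, losing it without the first Met-low array.

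**Figure D4:**
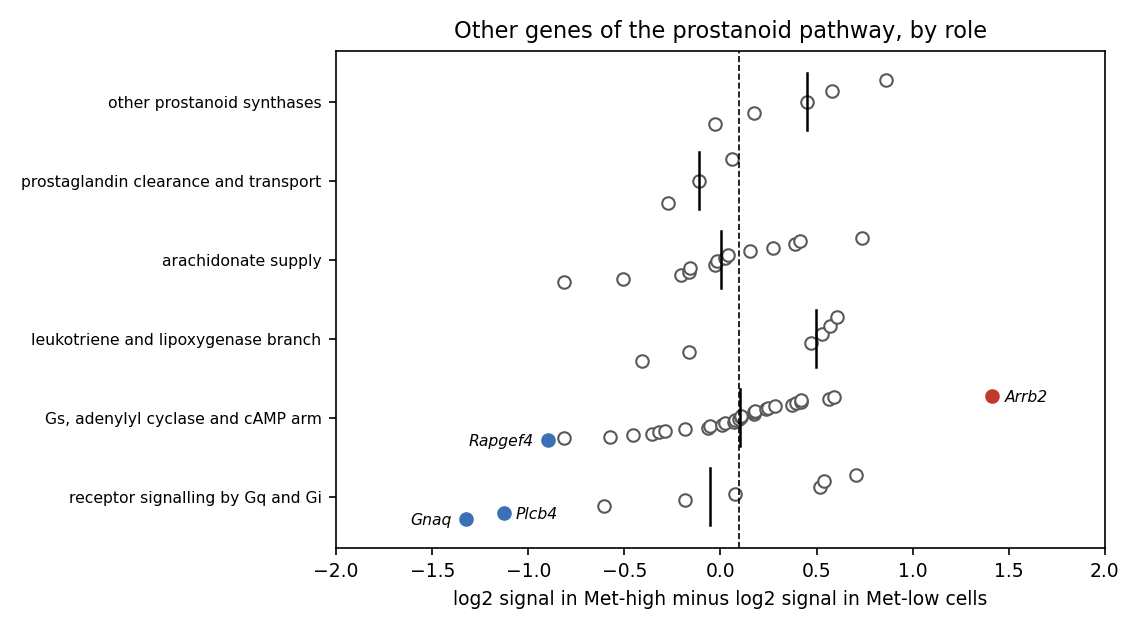
Log2 signal in Met-high minus log2 signal in Met-low cells for the 66 pathway genes that passed the filter, by role, 1 point per gene. Filled points passed an adjusted p of 0.05 in limma (blue, lower in Met-high; red, higher), vertical bars are list medians, and the dashed line is the median of all genes, 0.10. *Gnaq* at -1.32 and *Arrb2* at 1.41 lie farthest out, and the leukotriene branch and the other synthases have medians of 0.50 and 0.45.

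Genes with a profile most like that of *Ptgir* were ranked by the distance between log2 signals over the 4 arrays, each gene centred on its own mean, among the 11948 genes. *Timp4*, which encodes a tissue inhibitor of metalloproteinases, was the nearest at a distance of 0.49, with a log2 difference of -5.16. The zinc finger gene *Zfp40*, also at 0.49, and *Rbms3*, the gene of an RNA-binding protein, at 0.51, were well above background on no Met-high array. Their differences are bounds, at least 8.47-fold for *Zfp40* and at least 22.2-fold for *Rbms3* higher in Met-low cells. Both genes passed the filter through the Met-low arrays alone, where they were higher. Their distances use Met-high signals that were not well above background, so their rank is uncertain. *Aldh1l1*, which encodes a folate enzyme, lay at 0.90 with a log2 difference of -4.36. The likeness rests on 4 arrays of 2 populations alone.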

How the data were processed

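RNA of 2 Met-low and 2 Met-high samples was hybridised to 1-colour Agilent arrays. The authors deposited the Feature Extraction output of each array, with a background-corrected Cy3 intensity per spot and marks for outlier spots, saturated spots and spots well above background. File headers name version 11.0.1.1, the submitters' processing notes 10.7.3.1. The authors also deposited processed log2 values, which matched the scanner intensities in direction, scaled to the 75th percentile and centred per probe. Column medians were 0.15, -0.04, 0.04 and -0.12.

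Here, spot intensities with a floor of 0.01, which changed 0 spots, were converted to log2. They were scaled to the 75th percentile over all spots of their array, controls aside. Flagged spots (207 to 232 per array) were then left out, and the scaled log2 values were averaged per probe. The accessions of 27427 of 39429 probes matched RefSeq (GRCm38.p6, used for names). The brightest probe stood for a gene, and the 11948 genes that were well above background in every array of Met-low or of Met-high cells were kept. A probe whose spots were all flagged on any array was dropped. The number of arrays limits the precision. Met-high was set against Met-low cells by lmFit and eBayes (limma 3.58.1, R 4.3.3), two-sided, and p-values were adjusted by Benjamini-Hochberg over the kept genes, at a threshold of 0.05. In a simulation, 200 of the 11948 genes were changed and noise was drawn independently for each array. There the fit called 6 of 66 changes of log2 size 1, 43 of 65 of size 2 and 55 of 69 of size 3. It made 2 false calls. The real arrays differed from this setting, with 5.75% of genes called and same-numbered arrays deviating together (r = 0.54). These counts therefore do not give the share of real changes found or of false calls. A gene that was not called may still differ, and in the simulation changes of log2 size 1 were mostly missed. A bound sets the bright group's mean per array against the lowest signal that was well above background, or the dim probe's own signal where that is higher. Summed marker signals are unscaled.

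Genes named are the 10 members, pathway genes that passed the threshold or differed over 2-fold, others beside the counts of their lists, and the 5 genes nearest to *Ptgir*, of which 1 is not reported here. Members, lists and tests were chosen with earlier results of these data known. Alternatives were normexp background correction (offset 50), quantile normalization, other percentiles, filters and probe rules, flagged spots kept, a mean-variance trend, the replicate number as a block, each array left out, the authors' values, a 2-fold limit and a Student's t-test.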

Additional observations from a re-analysis of the deposited data

How the results depend on the processing

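No alternative changed the direction of the 4 measured members. The log2 difference ranged from -5.55 to -4.26 for *Ptgir*, 0.88 to 1.21 for *Ptgs1*, 0.15 to 0.36 for *Ptges* and 0.20 to 0.44 for *Ptgds*. With single arrays left out, the ranges were -5.55 to -4.82, 1.03 to 1.15, 0.28 to 0.36 and 0.25 to 0.44. Normexp gave -4.26 for *Ptgir*, 0.88 for *Ptgs1* and 0.23 for *Ptges*. Quantile normalization gave 1.21 for *Ptgs1* and 0.15 for *Ptges*. The percentile over detected probes gave 0.94 for *Ptgs1*, 0.17 for *Ptges* and 0.20 for *Ptgds*, and the mean of both *Ptges* probes gave 0.22. Calls of genes moved more. Those of members support nothing under any alternative, since the family was chosen by its difference on these same arrays. Without the filter on dim probes limma called 7 genes of 20788, 0 members (2 at an unadjusted p under 0.05) and 0 pathway genes (11 unadjusted), with more genes tested. A Student's t-test called 2211 genes, 3 members and 10 pathway genes unadjusted, and 1, 0 and 0 after Benjamini-Hochberg. The study's methods name this test for comparisons of 2 groups in general, and for the arrays they describe selection by a 2-fold difference. Beside 4 called pathway genes, normexp, quantile normalization and every probe by itself gave 2 each. Leaving out single arrays gave 646 to 898 genes, 1 to 1 members, *Ptgir* each time, and 1 to 3 pathway genes. A replicate block gave 3552 genes (1578 higher in Met-low, 1974 in Met-high), 2 members and 21 pathway genes (7 and 14). Same-numbered arrays deviated together (r = 0.54 across genes), but 2 pairs and labels that share only a number do not establish a pairing. A block for slide or scan was not run, since there was 1 of each. For 6 of the 10 members signal over background was the limit, and no difference was detectable.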

Other observations

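Where a pathway gene had several probes that were well above background on all 4 arrays, they did not always give like log2 differences (Met-high minus Met-low). The 3 probes of *Ptgr2*, which reduces prostaglandin metabolites, gave 0.06, -0.51 and -0.01. The 2 probes of *Prkca*, a protein kinase C, gave -0.60 and -0.10, and those of *Prkar1a*, a regulatory subunit of protein kinase A, gave 0.01 and -0.33. The 2 probes of *Plcb4*, at -1.13 and -1.10, lay much closer together. No reason for these spreads was tested.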
